A study of Mus musculus with 8 samples.

Results

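Livers of mice given a medium dose of Diwu Yanggan capsules (DWYG, a herbal preparation) were compared with livers of the untreated hepatocellular carcinoma model. The comparison covers every gene with an FPKM of at least 1 (FPKM is a fragment count scaled to transcript length and sequencing depth) in at least 2 of the 8 libraries of the study, which were 11606 of the 17164 genes in the table. All mice were male C57BL/6. Model mice (group DEN+CCl4, called model here) received the liver carcinogen diethylnitrosamine (DEN, 0.67%) by intraperitoneal injection at 2 weeks of age. From 8 weeks until the end they were injected 2 times a week with carbon tetrachloride (CCl4, 20% in olive oil), a hepatotoxin that causes fibrosis. The medium-dose group (DWYG-M) had both agents and, from 17 weeks, DWYG at 1 multiple of the clinical equivalent dose. The high-dose group (DWYG-H), shown for reference, had 2 multiples. Control mice had saline in place of DEN, and no CCl4 is named for them. All were killed at 22 weeks. Each of the 4 groups held 6 mice, and 2 liver samples per group, picked at random, were sequenced. The labels call the tissue liver and do not say whether tumour nodules were in the pieces taken. They do not state outright that the 2 samples of a group came from different mice. The p-values therefore measure the spread between samples of a group, pooled in the main test over all 4 groups.

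Mouse liver carries a strong sex difference in gene expression. The pulsed release of growth hormone in males acts through STAT5 in hepatocytes and keeps on a set of male genes, among them Hsd3b5, Cyp4a12a, Slco1a1 and the major urinary proteins. Chronic injury and carcinogenesis bring in other programmes: ductular cells that carry cholangiocyte keratins such as Krt19, collagen-producing myofibroblasts, macrophages, dividing cells marked by mitotic kinesins such as Kif20a, and fetal genes such as Afp. The title of the study names YAP signalling. YAP (Yap1) and TAZ (Wwtr1) are coactivators that are held in the cytoplasm by the Hippo kinases and act on DNA through TEAD factors, and Ankrd1, Ccn1 and Ccn2 are among their best-known targets.

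The promoters of 4 genes on which the results turn are printed from RefSeq (build GRCm38.p6), 250 bases before to 50 bases after the annotated start, each 5′ to 3′ on the gene's own strand. Hsd3b5 is shown as the gene that passed the test, and Slco1a1 as a male gene that passed by DESeq2 and not by edgeR. Ankrd1 is shown as the YAP target with the lowest fold change. Sprr1a is the gene with the most negative fold change among the 12 lower genes of smallest p. Capitals mark, on either strand, the TEAD letters GGAATG in Slco1a1 and Ankrd1 and the AP-1 letters TGACTCA in Sprr1a.
Hsd3b5: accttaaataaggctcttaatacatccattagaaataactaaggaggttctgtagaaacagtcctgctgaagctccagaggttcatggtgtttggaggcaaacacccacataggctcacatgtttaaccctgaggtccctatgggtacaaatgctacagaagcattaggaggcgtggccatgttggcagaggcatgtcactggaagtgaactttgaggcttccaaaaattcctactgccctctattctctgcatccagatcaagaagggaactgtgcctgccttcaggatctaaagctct
Slco1a1: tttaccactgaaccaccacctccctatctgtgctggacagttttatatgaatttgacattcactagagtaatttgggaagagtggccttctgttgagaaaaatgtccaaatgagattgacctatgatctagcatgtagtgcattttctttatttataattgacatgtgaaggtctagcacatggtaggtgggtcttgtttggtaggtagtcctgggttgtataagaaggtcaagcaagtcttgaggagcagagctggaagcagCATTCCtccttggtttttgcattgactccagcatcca
Ankrd1: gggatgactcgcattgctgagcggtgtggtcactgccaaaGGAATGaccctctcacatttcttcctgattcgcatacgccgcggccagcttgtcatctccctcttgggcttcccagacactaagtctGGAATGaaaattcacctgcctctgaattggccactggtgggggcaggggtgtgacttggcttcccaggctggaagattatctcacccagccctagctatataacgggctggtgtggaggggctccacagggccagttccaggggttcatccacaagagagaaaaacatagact
Sprr1a: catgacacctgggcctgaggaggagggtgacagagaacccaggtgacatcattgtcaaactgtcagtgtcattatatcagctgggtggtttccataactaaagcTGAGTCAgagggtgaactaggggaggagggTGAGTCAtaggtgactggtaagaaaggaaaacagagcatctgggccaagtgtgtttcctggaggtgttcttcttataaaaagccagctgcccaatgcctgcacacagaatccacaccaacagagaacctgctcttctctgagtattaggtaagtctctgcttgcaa
The windows lie on the minus strand at chr3:98645485-98645784 (Hsd3b5), chr6:141946913-141947212 (Slco1a1), chr19:36119795-36120094 (Ankrd1) and chr3:92485832-92486131 (Sprr1a). Ankrd1 holds GGAATG 2 times and Slco1a1 1 time. Across 32851 RefSeq windows of the same length, 14.7% hold it. Sprr1a holds TGACTCA 2 times, against 5.2% of all windows with any match. The STAT5 letters TTCNNNGAA, found in 8.3% of all windows, are in none of the 4, and Hsd3b5 has none of the 3 motifs. These letters do not overlap with each other in these windows, and a match is a description of the sequence and not a binding site.

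Sequencing depth was alike in the 4 libraries compared, with 18097161 to 19191382 counts. Albumin (Alb), the main secreted protein of hepatocytes, lay between 35882 and 60316 FPKM in them, so the defining marker of the labelled tissue was present. The 2 model libraries were less alike than those of any other group: their log2 expression values correlated across genes at r = 0.9605, against 0.981 in DWYG-M, and genes are not independent replicates. Model replicate 1 correlated with the DWYG-M libraries at 0.9752 and 0.9631, more closely than with model replicate 2. Medians and counts without single libraries are therefore given beside main values that they move widely, and the plot of list medians shows the range for every list.

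Of the 11606 genes, 1 passed the test between DWYG-M and model (0.00862%), and it was the steroid-metabolising enzyme Hsd3b5, expressed in male hepatocytes. Its level was 0.86 and 0.45 FPKM in model and 12.2 and 16 in DWYG-M. Both DWYG-M libraries lay far above both model libraries and far below the 241 and 171 of control, and DWYG-H stood between at 3.34 and 4.49. Hsd3b5 rose 22.6-fold (log2 fold change 4.50 ± 0.31 SE, adjusted p = 0.0065 by edgeR's quasi-likelihood test with Benjamini-Hochberg adjustment). Without each library in turn the log2 fold change was 4.18 to 4.92 and the call held (adjusted p 0.00983 to 0.0379). With only the 4 libraries compared in the model, the same fold change of 4.49 had an adjusted p of 0.0592.

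No gene passed in the lower direction by edgeR, while 838 lower genes (7.22%) and 630 higher genes (5.43%) had an unadjusted p under 0.05. DESeq2 passed 72 higher and 134 lower genes, of which 116 are on the gene lists used below. Its adjusted p is printed beside the edgeR value for some genes only. Others given below with an edgeR value alone passed by DESeq2 too (adjusted p in parentheses). They were Lcn2 (0.000193), Cd14 (0.000245), Cyp2e1 (0.000676), Cxcl1 (0.00281) and Atf3 (0.00287). Cish (0.212), Gpc3 (0.0924) and Tead1 (0.387) did not pass by DESeq2. By edgeR the smallest adjusted p after Hsd3b5 was 0.167. Since all other genes missed the threshold by edgeR, the account that follows gives levels and counts. The gene lists were written with earlier results of these data known, so their counts are descriptions and not tests. A gene is called apart by 2-fold where both DWYG-M libraries lay on the same side of both model libraries and the fitted difference was at least 2-fold. No overlap alone held for 20.4% of genes upward and 20.2% downward, so it is frequent by itself. Being apart by 2-fold held for 121 higher genes (1.04% of those tested) and 356 lower genes (3.07%), together 477 (4.11%), and the median log2 fold change over all genes was -0.02. Leaving out a library loosens the condition of no overlap, so such counts can grow: without model replicate 1 they were 379 and 595, without model replicate 2 108 and 409, and without DWYG-M replicates 1 and 2 they were 259 and 694, and 75 and 367. In the plot of all genes by fold change and p, Hsd3b5 stands alone at the top right.

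**Figure D1:**
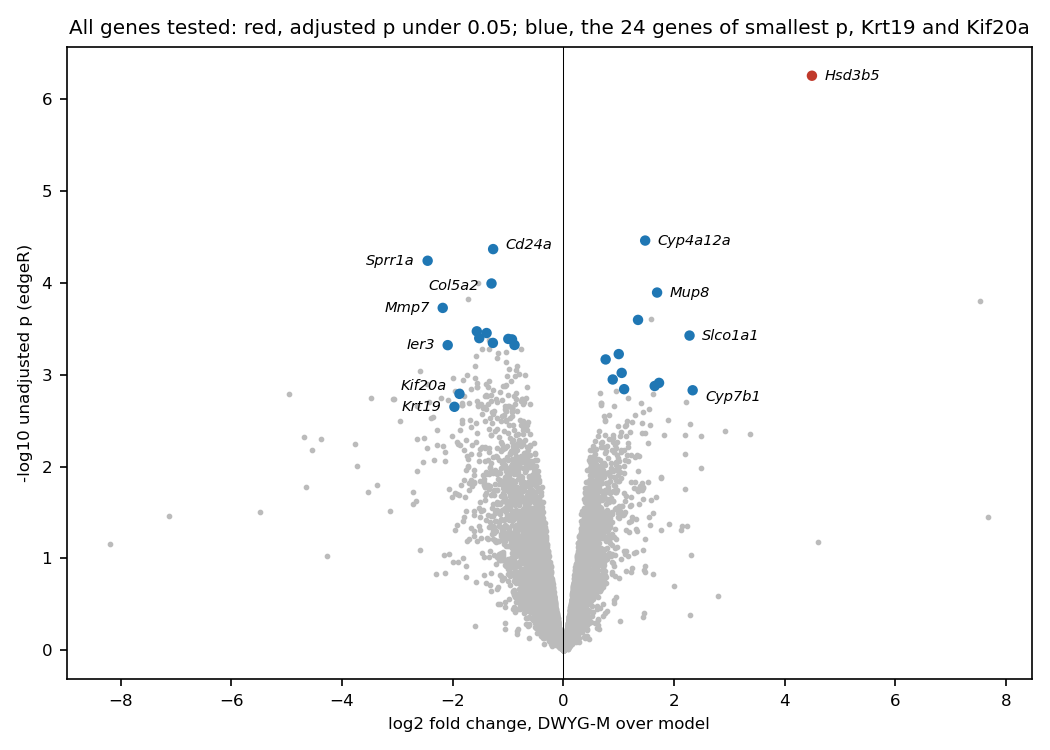
Each point is a gene: log2 fold change of DWYG-M over model (x axis) against -log10 of the unadjusted edgeR p (y axis). Hsd3b5 (red) is the one gene past an adjusted p of 0.05, at a log2 fold change of 4.50. Blue points are 12 higher and 12 lower genes, plus Krt19 and Kif20a. The 12 and 12 had the smallest p among genes without overlap and with a mean of at least 5 FPKM in a group.

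Male hepatocyte genes other than Hsd3b5 were higher in DWYG-M without passing by edgeR, while several passed by DESeq2. Cyp4a12a, an arachidonic acid hydroxylase of male liver and kidney, was at 33.9 and 34.1 FPKM in model and at 102.7 and 80.3 in DWYG-M. The groups did not overlap, control was at 147 and 140.4, and DWYG-H at 33.1 and 36.1 was at the level of model. Its log2 fold change was 1.48 ± 0.18 (adjusted p = 0.167 by edgeR and 2.76e-09 by DESeq2). Its near copy Cyp4a12b, with which reads may be shared, was at 30.1 and 18.9 FPKM in the model livers. It was at 55.9 and 62.6 with the medium dose and at 18.3 and 24.4 with the high dose. The difference of DWYG-H from DWYG-M was -1.40 ± 0.18 for Cyp4a12a and -1.84 ± 0.26 for Hsd3b5 on the log2 scale. Each had an adjusted p of 0.534 (edgeR), so the doses cannot be said to differ for these genes. DESeq2 was run for DWYG-M against model only. By edgeR the unadjusted p of Cyp4a12a was 3.48e-05 for DWYG-M against model and 5.06e-05 for DWYG-H against DWYG-M.

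Slco1a1, an organic anion transporter of the male sinusoidal membrane, was at 13 and 4.36 FPKM in model and 39.3 and 39.3 in DWYG-M. The DWYG-M libraries were equal and above both model libraries, which were themselves far apart. The log2 fold change was 2.28 ± 0.39 (adjusted p = 0.213 by edgeR and 3.44e-07 by DESeq2). It passed both without model replicate 1 (3.14, adjusted p = 0.00862) and without model replicate 2 (1.75, adjusted p = 0.0318), as did Hsd3b5 and no other gene. Cyp7b1, an oxysterol hydroxylase of the alternative bile acid pathway, was at 20.8 and 11.8 in model and 39.95 and 115.9 in DWYG-M. Here replicate 2 of DWYG-M was the higher by far, and the log2 fold change of 2.34 ± 0.49 was 1.37 without it.

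Of the 28 genes written on a list of male-biased liver genes, 27 were tested. Higher values stood at 25 of them, and 15 were apart by 2-fold upward (55.6%, against 1.04% of all genes) and none downward. By edgeR 1, Hsd3b5, passed. By DESeq2 12 passed, all of them higher, against 72 higher among all 11606 genes. Other lists had such counts too. DESeq2 passed 12 of 30 immediate early and heat shock genes, 12 of 44 collagen and matrix genes and 9 of 56 cell cycle genes. All of these were lower, against 134 lower among all 11606 genes. The median log2 fold change of the 27 was 1.35, and it was 0.85 without DWYG-M replicate 2. Among the other members, the transporter Slc22a28 was at 1.89 and 1.10 FPKM in model and 5.44 and 4.05 in DWYG-M, and the fatty acid elongase Elovl3 at 34.7 and 3.54 against 89.8 and 40.9. Both had DWYG-M above model with no overlap. The 2 members with lower values were Serpina12 and Serpina1e, at log2 fold changes of -0.35 and -0.09. Of 25 female-biased genes, 15 were tested, 14 had lower values, and the median was -0.55 (-0.82 and -0.35 without model replicates 1 and 2). Of the 15, 1 was apart by 2-fold downward (6.67%, against 3.07% of all genes), or 6 without model replicate 1 and 5 and 3 without DWYG-M replicates 1 and 2. With all 4 libraries the 1 gene was Acot3, which is also on the list of fatty acid oxidation genes. Cyp2a4, a steroid hydroxylase of female liver, was at 548 and 1074 in model and 563 and 223 in DWYG-M, so the groups overlapped.

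The major urinary proteins are pheromone carriers encoded by a cluster of near-identical genes, so reads may be shared between copies and single values are uncertain. As a family they took 1.76% and 0.563% of all counts in model and 2.09% and 3.50% in DWYG-M, against 15.3% and 15.4% in control. Of 20 tested members, 14 were apart by 2-fold upward (70%, against 1.04% of all genes) and none downward, with a median of 1.44. Leaving out model replicate 1 gave 2.46, leaving out model replicate 2 gave 0.96, and leaving out DWYG-M replicate 2 gave 0.99. Mup8 was at 4.87 and 3.77 FPKM in model and 13.7 and 12.9 in DWYG-M. Its log2 fold change was 1.70 ± 0.25 (adjusted p = 0.205 by edgeR and 0.000143 by DESeq2). Mup20, which encodes the male pheromone darcin, was at 10489 and 4142 in model and 10297 and 9433 in DWYG-M. In RefSeq, 12 of the 13 members that have a promoter hold GGAATG, the TEAD letters. As near-identical copies they are not independent, so that count cannot be compared with the 16.6% of all genes with a promoter. Of the 21 male-biased genes with a promoter, 4 hold the STAT5 letters, against 9.57% of all genes with a promoter. The letters were in 10 of 31 interferon response genes, 8 of 26 acute phase genes and 0 of 29 collagen and matrix genes. Such shares were not tested.

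The growth hormone axis itself had members on both sides. Cish, a STAT5-induced inhibitor of cytokine receptors, was at 11.3 and 8.93 FPKM in model and 0.94 and 0.95 in DWYG-M. The 2 groups were far apart, but control was at 8.45 and 0.40, as wide as the difference itself. The log2 fold change was -3.36 ± 1.10 (adjusted p = 0.299, edgeR), and with only the 4 libraries in the model it was the gene that passed (-3.37, adjusted p = 0.0396). Bcl6, a repressor with opposite behaviour to Cish under growth hormone pulses, was at 3.29 and 1.91 in model and 10.3 and 14.8 in DWYG-M, with control at 3.38 and 14.2. Socs2, another STAT5 target, was at 6.17 and 10.2 against 3.74 and 2.87. The receptor Ghr was at 120.1 and 52.3 in model and 126 and 176 in DWYG-M. Over 16 tested members the median was -0.01, with 1 apart by 2-fold upward (6.25%) and 4 downward (25%). That median was -0.11 without model replicate 1 and turned to 0.14 without model replicate 2, and the counts ran from 1 to 2 upward and 3 to 5 downward.

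**Figure D2:**
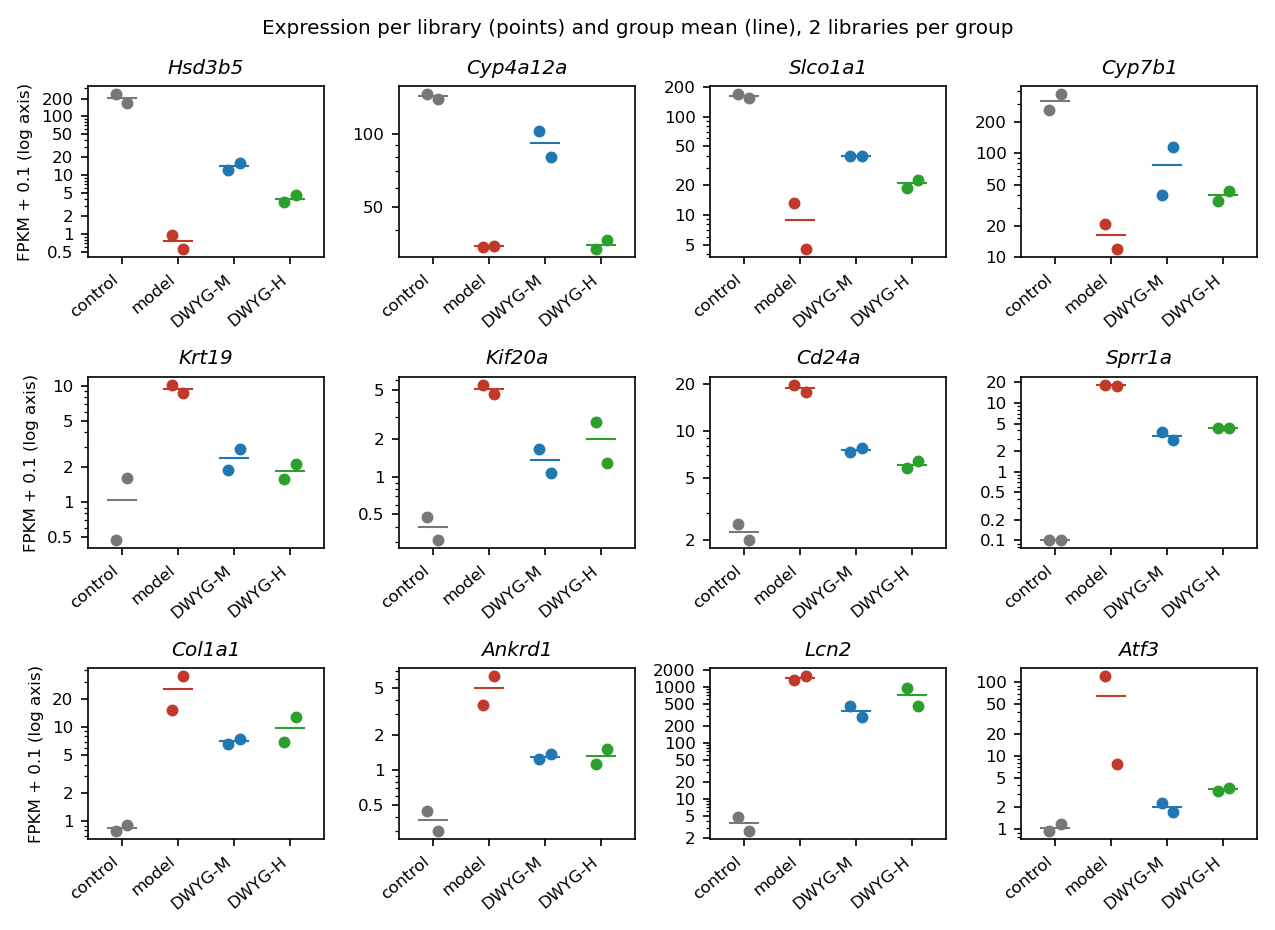
FPKM plus 0.1 on a log axis (y) in each of the 8 libraries, by group (x), for 12 genes; points are libraries and lines are group means. In Hsd3b5, Cyp4a12a, Slco1a1 and Cyp7b1 both DWYG-M points lie above both model points, in the other 8 genes below them, and the 2 model points of Atf3 are wide apart.

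Hepatocyte enzymes followed with smaller differences. Among 77 tested cytochrome P450 and phase II genes, which oxidise and conjugate drugs and steroids, 69 had higher values in DWYG-M and 14 were apart by 2-fold upward (18.2%), with none downward and a median of 0.58. Leaving out model replicate 1 gave a median of 0.88 and 35 genes, and leaving out replicate 2 gave 0.38 and 6. Leaving out DWYG-M replicate 1 or 2 gave 25 or 6 genes. Cyp2e1, the pericentral enzyme that activates CCl4, was at 1506 and 678 FPKM in model and 2396 and 3667 in DWYG-M. Control was at 4615 and 5500, above both. Its log2 fold change was 1.56 ± 0.38 (adjusted p = 0.231, edgeR). The carboxylesterase Ces3b was at 60.5 and 25.8 in model and 105 and 191 in DWYG-M, again without overlap.

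Both zones of the liver lobule shared this direction. Of 34 pericentral genes, 9 were apart by 2-fold upward (26.5%, against 1.04% of all genes) and none downward, with a median of 0.67. Without model replicate 1 these were 17 and 1.05, without model replicate 2 they were 5 and 0.34, and without DWYG-M replicate 2 they were 4 and 0.33. Slc1a2, a glutamate transporter, was at 3.39 and 1.17 FPKM in model and 8.18 and 13 in DWYG-M. Glul, the glutamine synthetase of the last hepatocytes around the central vein, was at 119 and 49.2 against 149 and 270.3, and the Wnt antagonist Notum at 7.11 and 4.50 against 9.26 and 14.6. None of the 3 overlapped between the groups. Of 40 periportal, urea cycle and amino acid genes, 37 had higher values and 3 were apart by 2-fold upward (7.5%). That count was 1 without model replicate 2, 2 without DWYG-M replicate 2 and 12 without replicate 1 of either group. The median of 0.54 was 0.24 without DWYG-M replicate 2. Cyp2f2, a periportal P450, was at 368 and 231 in model and 498 and 938 in DWYG-M. The groups did not overlap, and DWYG-M replicate 2 was the high library.

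Genes for the general secretory output of hepatocytes were evenly split: 30 of 61 had higher and 31 lower values, with a median of 0.00 (-0.11 without model replicate 1 and 0.26 without model replicate 2). Alb was at 39625 and 60316 FPKM in model and 54296 and 35882 in DWYG-M, so the groups overlapped. All 63 tested nuclear genes of the respiratory chain had higher values, none reached 2-fold, and their median was 0.31 (0.48 without DWYG-M replicate 1 and 0.15 without replicate 2). Sdhb, a subunit of succinate dehydrogenase, was at 127 and 120.4 in model and 160.0 and 212 in DWYG-M. Bile acid genes, 33 tested, had a median of 0.43. Of them 3 were apart by 2-fold upward (9.09%) and 1 downward (3.03%), against 1.04% and 3.07% of all genes. Slco1a1 and Cyp7b1, whose values are given above, are among the 3. Without model replicate 1 the median was 0.65 and 12 were apart upward. The median was 0.23 without model replicate 2 and 0.26 without DWYG-M replicate 2. The bile acid importer Slc10a1 was at 179 and 120.2 in model and 225 and 353 in DWYG-M, without overlap, and the exporter Abcc4 lay the other way at 7.86 and 3.99 against 2.27 and 1.55.

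Cholangiocyte and ductular markers were lower in DWYG-M. Krt19, the keratin that marks bile duct cells, was at 10.1 and 8.54 FPKM in model and 1.80 and 2.78 in DWYG-M. The groups were well apart, control was at 0.37 and 1.53, and DWYG-H at 1.48 and 2.03. The log2 fold change was -1.97 ± 0.44 (adjusted p = 0.213, edgeR; adjusted p = 0.00724, DESeq2). Krt7, another ductal keratin, was at 3.22 and 4.45 against 1.13 and 0.97, and the adhesion molecule Epcam at 6.83 and 7.25 against 2.20 and 2.94. Of 22 tested members 11 were apart by 2-fold downward (50%, against 3.07% of all genes) and none upward, with a median of -1.09. Their summed level was 1330 to 1774 TPM (transcript share scaled to a fixed total) in model and 807 to 1161 in DWYG-M. The list was not uniform: the water channel Aqp1 was at 69.0 and 40.1 FPKM in model and 58.7 and 62.2 in DWYG-M, with overlap. In bulk tissue, fewer cells of a type and less RNA per cell cannot be told apart, here and in the cell markers that follow.

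Oncofetal and tumour markers separated into genes with close replicates and genes that differed between the 2 model livers. Cd24a, a surface protein of progenitor and tumour cells, was at 19.6 and 17.6 FPKM in model and 7.20 and 7.69 in DWYG-M. Replicates were close in both groups and did not overlap (log2 fold change -1.27 ± 0.16, adjusted p = 0.167 by edgeR and 0.000134 by DESeq2). Sprr1a, a cornified envelope protein whose promoter is printed above, was listed at 0 in both control libraries and was at 18.4 and 17.9 in model and 3.70 and 2.76 in DWYG-M (-2.45 ± 0.28, adjusted p = 0.167, edgeR). It passed by DESeq2 (adjusted p = 1.77e-05) and by limma on log2(FPKM + 1). Mmp7, a matrix metalloproteinase of injured ductal epithelium, was at 17.1 and 19.6 against 4.29 and 3.59, and the epithelial factor Ehf at 2.94 and 2.46 against 0.96 and 0.80. These 4 genes had higher levels in both model libraries than in any DWYG-M or DWYG-H library.

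Afp, the fetal albumin relative used as a tumour marker, was at 143 and 579 FPKM in model and 217 and 111 in DWYG-M. The groups overlapped, and the log2 fold change of -1.15 became 0.35 without model replicate 2. Akr1c18, a steroid dehydrogenase, overlapped too, at 159 and 302 against 196 and 79.2. Gpc3, a glypican of liver tumours, was at 105.0 and 127 against 67.9 and 38.2 and did not overlap (-1.08 ± 0.37, adjusted p = 0.31, edgeR). Lcn2, an iron-carrier protein of injured hepatocytes and neutrophils, was at 1329 and 1574 in model and 453 and 286 in DWYG-M, with control at 4.62 and 2.52. Its groups were apart, at -1.95 ± 0.41 (adjusted p = 0.213, edgeR). Of 33 tested members of this list, 32 had lower values and 13 were apart by 2-fold downward (39.4%), or 23 without model replicate 1 and 23 without DWYG-M replicate 1. The median of -1.05 was -0.44 without model replicate 2.

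Mitotic genes were lower in DWYG-M than in model. Kif20a, a kinesin of cytokinesis, was at 5.38 and 4.49 FPKM in model and 1.58 and 0.97 in DWYG-M, with control at 0.38 and 0.21 and DWYG-H at 2.65 and 1.20. The groups did not overlap, at -1.88 ± 0.40 (adjusted p = 0.213, edgeR; adjusted p = 0.00331, DESeq2). Mki67, which encodes the proliferation antigen Ki-67, was at 4.23 and 3.10 against 1.45 and 0.84, and Birc5, survivin, at 11.3 and 12.9 against 4.32 and 2.71. In all 3, DWYG-M replicate 2 was the lowest of the 4 libraries, and both DWYG-M libraries were above both control libraries. Of 56 tested cell cycle genes, 54 had lower values and 35 were apart by 2-fold downward (62.5%), with none upward and a median of -1.11. Without DWYG-M replicate 2, 20 were apart by 2-fold and the median was -0.84. Mcm4, a replication licensing factor, was at 3.38 and 3.38 against 1.78 and 1.98 (-0.79), while Tyms and Tk1, enzymes of thymidine supply, had log2 fold changes of 0.00 and 0.25.

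**Figure D3:**
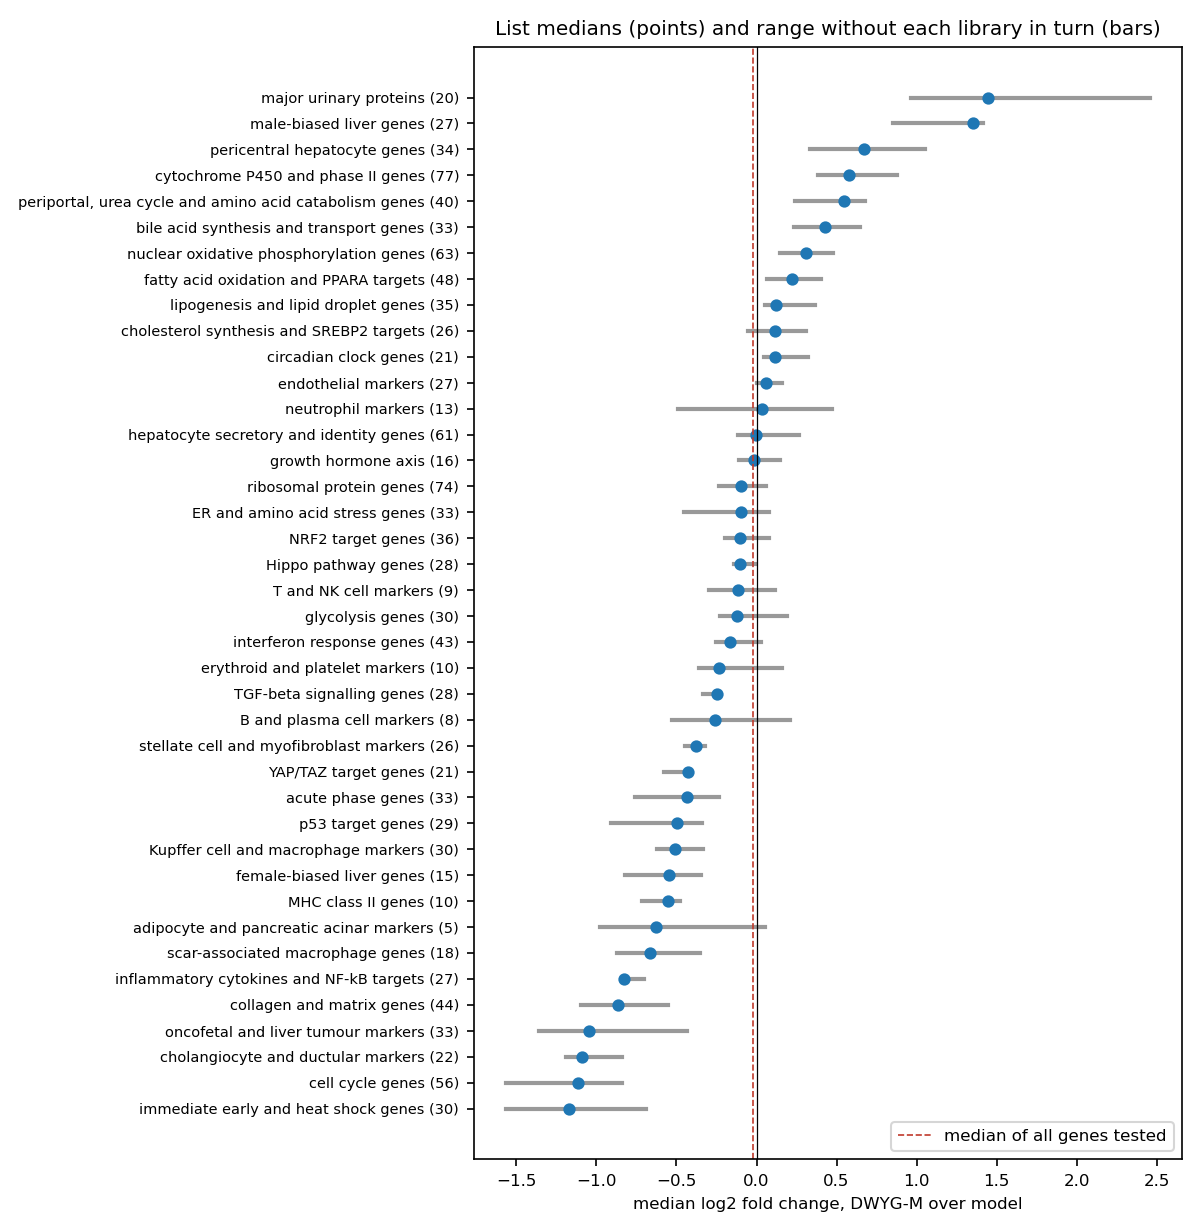
Points are the median log2 fold change of DWYG-M over model (x axis) for each of 40 gene lists (y axis, tested members in parentheses), bars the range of that median with each of the 4 libraries left out in turn. Major urinary proteins (1.44) and male-biased genes (1.35) lie furthest right, and immediate early (-1.17) and cell cycle genes (-1.11) furthest left of the all-gene median of -0.02 (dashed).

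Collagen and matrix genes were lower in DWYG-M. Col5a2, a fibrillar collagen chain, was at 6.62 and 7.76 FPKM in model and 2.59 and 3.06 in DWYG-M, with control at 0.69 and 0.69. All replicates were close, at -1.30 ± 0.18 (adjusted p = 0.197 by edgeR and 0.000143 by DESeq2). Col1a1, the main chain of scar collagen, was at 15.1 and 34.9 against 6.57 and 7.28. Here the 2 model livers were far apart, and the log2 fold change of -1.83 became -0.97 without model replicate 2. Col6a3 was at 6.67 and 9.39 against 2.79 and 3.18, and Lox, the enzyme that crosslinks collagen, at 2.07 and 2.28 against 0.68 and 0.61. Of 44 tested members, 40 had lower values and 14 were apart by 2-fold downward (31.8%), or 24 without model replicate 1. The median of -0.86 was -0.55 without model replicate 2. Decorin (Dcn) was among the exceptions, at 191 and 111 in model and 140.4 and 180.1 in DWYG-M, with overlap.

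Markers of stellate cells and myofibroblasts, which make most of this matrix, had a smaller median of -0.38 over 26 tested. Of these, 2 were apart by 2-fold downward (7.69%, against 3.07% of all genes). The count was 8 and 1 without model replicates 1 and 2, and 3 and 4 without DWYG-M replicates 1 and 2. The summed level of these markers was 596 to 645 TPM in model and 436 to 454 in DWYG-M, and their part in the matrix values was not tested. Vim, vimentin, was at 51.5 and 57.2 FPKM in model and 29.7 and 29.1 in DWYG-M, and Acta2, the smooth muscle actin of myofibroblasts, at 12.6 and 17.3 against 8.72 and 5.03. Neither overlapped. Markers of quiescent stellate cells were mixed: Lrat, which esterifies vitamin A for storage, and the factor Lhx2 had log2 fold changes of 0.42 and 0.42, and Reln one of -0.32. TGF-beta genes had a median of -0.25 over 28, with 2 apart by 2-fold downward (7.14%). That count was 4 without model replicate 1 and 5 without DWYG-M replicate 2. The mediators Smad2, Smad3 and Smad4 had log2 fold changes of -0.05, -0.25 and 0.02.

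The mRNA of YAP and TAZ did not pass the test. Yap1 was at 24 and 24.4 FPKM in model and 22.9 and 21.9 in DWYG-M, a log2 fold change of -0.06 ± 0.14, and Wwtr1 at 9.02 and 7.58 against 7.88 and 7.99, one of 0.00 ± 0.17. Both Yap1 values of DWYG-M were slightly below model, and those of Wwtr1 lay between the model values. The 95% interval of the difference was -0.39 to 0.27 for Yap1 and -0.39 to 0.39 for Wwtr1, and RNA says nothing of where the proteins were. Tead1, a DNA-binding partner, was at 2.59 and 2.02 in model and 1.59 and 1.24 in DWYG-M (-0.63 ± 0.26, adjusted p = 0.377, edgeR). The Hippo kinases Stk3, Stk4, Lats1 and Lats2 had log2 fold changes of -0.16, 0.06, 0.01 and -0.25. Over 28 tested Hippo pathway genes the median was -0.10 (-0.0065 without DWYG-M replicate 2).

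YAP and TAZ targets were less even. Ankrd1, a muscle and stress ankyrin protein, was at 3.51 and 6.31 FPKM in model and 1.14 and 1.27 in DWYG-M, with control at 0.35 and 0.20. The groups did not overlap, at -2.0 ± 0.40 (adjusted p = 0.213, edgeR; adjusted p = 0.00911, DESeq2). Ccn1, a secreted matricellular protein, was at 9.44 and 10.6 against 3.65 and 5.63, but control spanned 4.05 to 16.7, and the value was -1.06 ± 0.61. Ccn2, connective tissue growth factor, was at 10.5 and 11.4 against 13.7 and 2.58. The DWYG-M libraries lay on either side of model, and without replicate 2 of DWYG-M the value of -0.38 became 0.37. Myof was at 3.59 and 3.76 against 2.01 and 1.5, and Ccdc80 at 24 and 25.7 against 12.5 and 14, both without overlap. Of 26 written targets, 21 were tested: 20 had lower values, 6 were apart by 2-fold downward (28.6%), or 3 without model replicate 2, and the median was -0.43. Of the 16 with a promoter in RefSeq, 7 hold the TEAD letters, against 16.6% of all genes with a promoter. Other lists ranged widely, with 9 of 22 Hippo pathway genes, 9 of 24 bile acid genes and 5 of 45 cell cycle genes. The share is thus not particular to the targets, and it was not tested. Several targets are also expressed in stellate and ductal cells, whose markers are given above, and their part in these values was not tested.

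**Figure D4:**
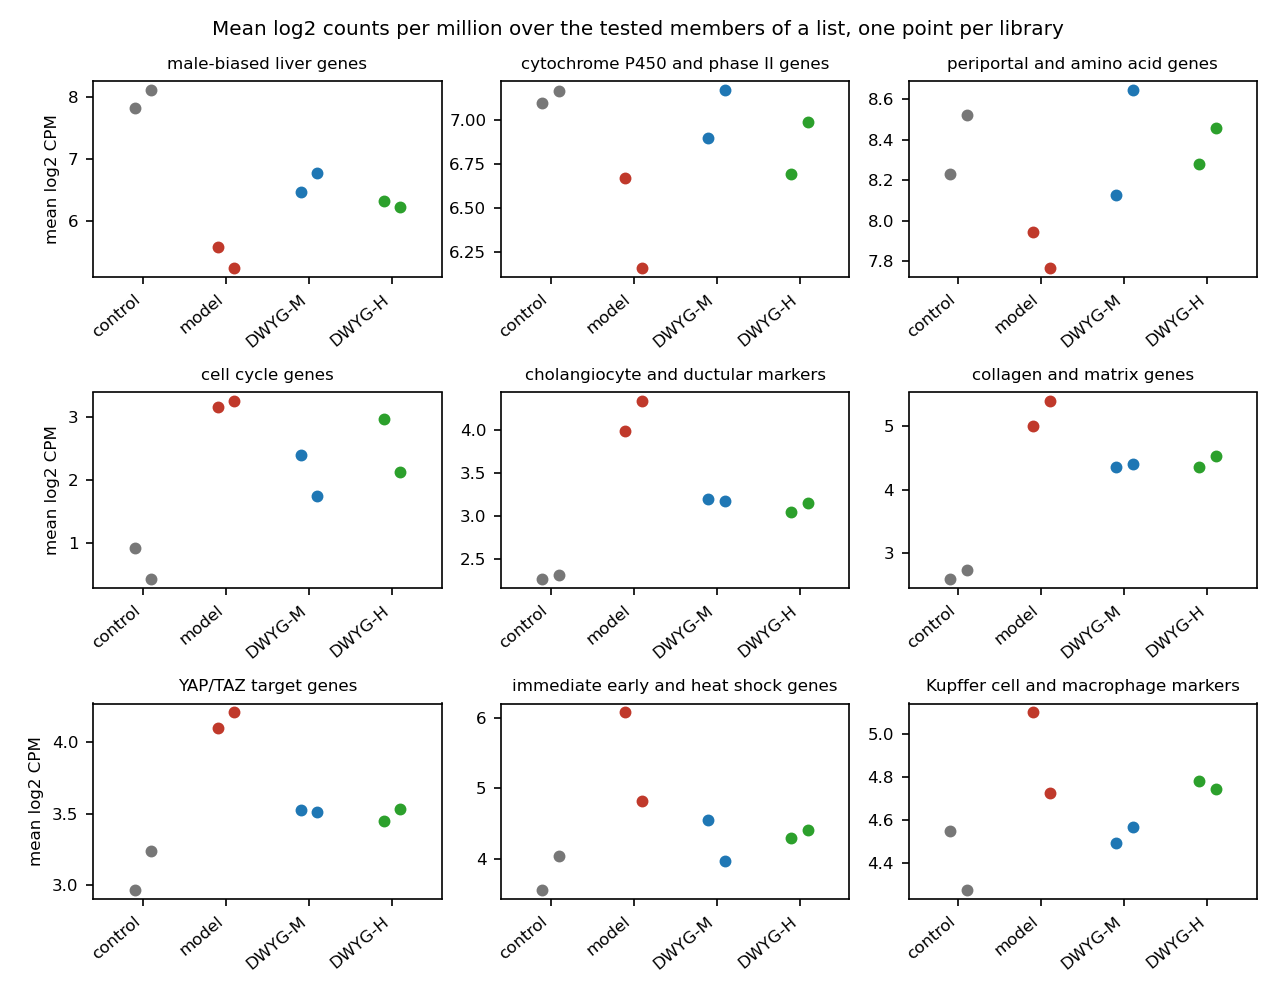
Mean log2 CPM (counts scaled to library size) over the tested members (y axis, each panel with its own range) in each library, by group (x axis), for 9 gene lists; each point is a library. Both DWYG-M points lie above both model points for the male-biased, P450 and periportal lists and below them for the other 6.

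Macrophage genes were lower to a smaller extent. Cd14, a lipopolysaccharide coreceptor, was at 28.9 and 37.0 FPKM in model and 13.4 and 8.34 in DWYG-M (-1.56 ± 0.26, adjusted p = 0.213, edgeR). Gpnmb and Mmp12, genes of macrophages in scars, were at 19.8 and 29.4 against 8.32 and 12.5, and at 11.7 and 9.65 against 4.32 and 5.04. None of the 3 overlapped. In DWYG-H, Mmp12 was at 9.87 and 13.4, close to model, but its difference from DWYG-M, 1.29 ± 0.21, had an adjusted p of 0.835 (edgeR). The resident Kupffer cell markers Clec4f and Timd4 were at 62.9 and 32.8 against 51.2 and 47.8, and at 1.88 and 0.94 against 1.99 and 1.38, with overlap in both. The Kupffer and macrophage list, 30 tested, had a median of -0.51 (-0.34 without model replicate 1). Of it, 3 members were apart by 2-fold downward (10%, against 3.07% of all genes). That count was 6 without model replicate 2, and 2 and 5 without DWYG-M replicates 1 and 2. The 18 scar macrophage genes had a median of -0.66 (-0.35 without model replicate 2). Of these, 4 were apart by 2-fold downward (22.2%), or 8 without model replicate 1 and 2 without model replicate 2.

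Markers of other cell types were split. Summed neutrophil markers were at 2259 to 2377 TPM in model and 754 to 783 in DWYG-M, a sum that Lcn2 dominates. Without it the picture was mixed: Ngp, a granule protein of immature neutrophils, was at 2.57 and 0.87 FPKM against 3.94 and 10.9, and S100a8 at 103.0 and 29.2 against 43.7 and 131. The median of the 13 was 0.03, and it was -0.49 without DWYG-M replicate 2, 0.47 without replicate 1, and 0.20 and -0.11 without model replicates 1 and 2. Endothelial markers, 27 tested, had a median of 0.06 and none apart by 2-fold (0.16 and 1 without model replicate 1, 0.0050 without model replicate 2 and 0.13 without DWYG-M replicate 2). Class II antigen presentation genes had a median of -0.55 over 10, with Cd74 at 259 and 232 against 130.0 and 148. T and NK cell markers (9 tested) had a median of -0.12, B and plasma cell markers (8) -0.26 and erythroid and platelet markers (10) -0.23, and the sign of each turned without model replicate 1 (T and NK cells, 0.12) or without model replicate 2 (0.21 and 0.16). Of the T and NK cell list the median was also 0.054 without DWYG-M replicate 2. Fat and pancreas markers had 5 tested members, of which Cfd was listed at 0 in 1 library of model and 1 of DWYG-M.

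Stress and early response genes were lower in DWYG-M and in part far apart between the 2 model livers. Atf3, a stress-induced transcription factor, was at 122.7 and 7.71 FPKM in model and 2.18 and 1.64 in DWYG-M. Both model libraries were above DWYG-M, and replicate 1 was far above replicate 2. The log2 fold change of -4.95 ± 1.06 (adjusted p = 0.213, edgeR) was -2.05 without model replicate 1. Fos and Jun, the subunits of AP-1, were at 47.7 and 3.61 against 1.95 and 1.49, and at 98.1 and 16.4 against 8.08 and 5.49. Fgf21, a hormone of hepatic stress and fasting, was at 107 and 6.66 against 2.13 and 2.86, and Plk3 at 109 and 18.4 against 13 and 7.12. Of 30 immediate early and heat shock genes, 12 were apart by 2-fold downward (40%) with a median of -1.17. Without model replicate 1 these were 6 and -0.69, and without model replicate 2 they were 20 and -1.53. Without DWYG-M replicate 1 they were 20 as well. Ier3 and Ier5, by contrast, had close model values, at 11.4 and 15 against 4.10 and 1.96, and at 8.96 and 7.69 against 3.89 and 4.12. How the livers were handled before freezing is not given in the labels.

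**Figure D5:**
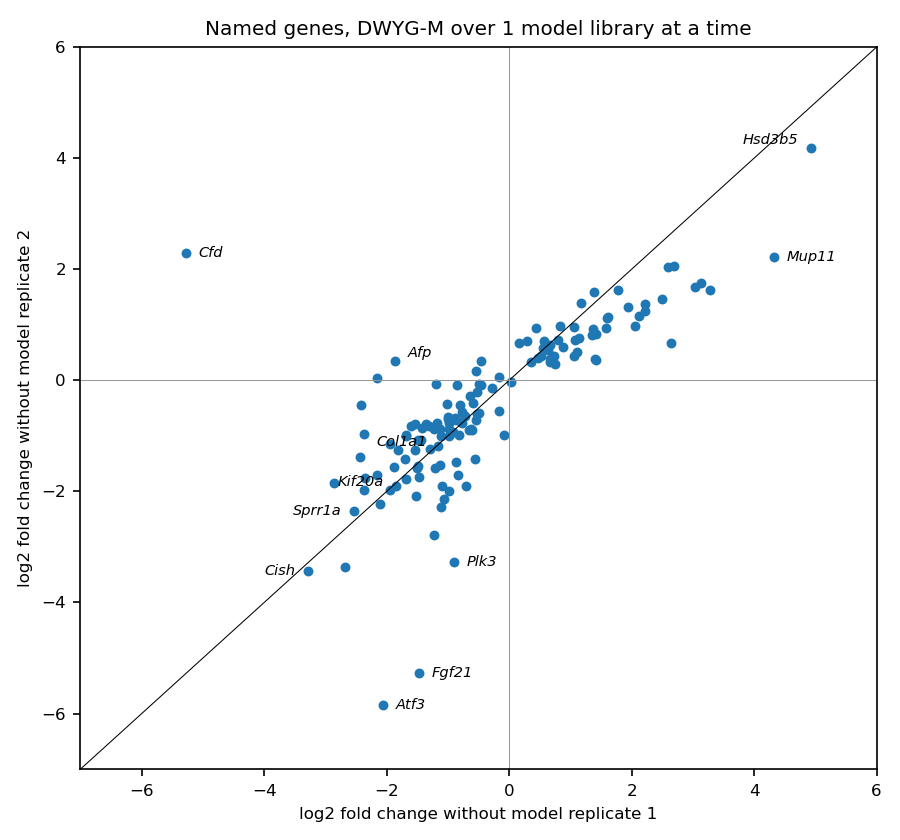
Log2 fold change of DWYG-M over model for the named genes with model replicate 1 left out (x axis) and with model replicate 2 left out (y axis); on the diagonal both would be equal. Hsd3b5 and Sprr1a lie near the diagonal, Atf3 (-2.05 and -5.85) and Fgf21 (-1.47 and -5.27) rest on replicate 1, and Afp (-1.86 and 0.35) rests on replicate 2.

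Inflammatory and acute phase genes were lower in DWYG-M to different degrees. Cxcl1, a neutrophil chemokine, was at 86.6 and 35.8 FPKM in model and 19.2 and 16.5 in DWYG-M (-1.70 ± 0.38, adjusted p = 0.213, edgeR). Ccl2, which attracts monocytes, was at 4.94 and 5.48 against 1.15 and 1.51, close within each group and without overlap. Of 27 cytokine and NF-kB genes, 9 were apart by 2-fold downward (33.3%, against 3.07% of all genes) and the median was -0.83. Saa1, a serum amyloid protein, was at 2917 and 162 in model and 122 and 88.5 in DWYG-M, with a log2 fold change of -3.72 and model replicate 1 far above the other 3 libraries. The pentraxin Apcs was at 327 and 423 against 208 and 135, while the protease inhibitor Serpina3k lay the other way at 4336 and 3220 against 6377 and 9202. Over 33 acute phase genes 6 were apart by 2-fold downward (18.2%), or 10 without DWYG-M replicate 1. The median was -0.43, and it was -0.76 without DWYG-M replicate 1 and -0.23 without replicate 2.

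NRF2 targets, which answer oxidative stress, were lower in part. Hmox1, heme oxygenase, was at 63.2 and 36.3 FPKM in model and 22.9 and 18.0 in DWYG-M, and Slc7a11, the cystine importer, at 10.1 and 3.92 against 2.24 and 1.46. Srxn1 was at 136 and 65.0 against 41.5 and 33.6. All 3 were without overlap and higher in model replicate 1. Over 36 members the median was -0.10 (0.08 without model replicate 1). Of these, 6 were apart by 2-fold downward (16.7%, against 3.07% of all genes) and 16 had higher values. Without model replicate 2 the median was -0.18 and without DWYG-M replicate 1 -0.20. Of 29 p53 targets, 8 were apart by 2-fold downward (27.6%) with a median of -0.50. Without DWYG-M replicate 1 these were 14 and -0.91, and without DWYG-M replicate 2 they were 4 and -0.36. Cdkn1a, the cell cycle inhibitor p21, was not among them, at 69.4 and 42.6 in model and 57.3 and 8.33 in DWYG-M.

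Both doses were compared with the same 2 model libraries, so their values are given side by side and not as support for each other. DWYG-H against model passed no gene by edgeR (0%), with 985 (8.49%) at an unadjusted p under 0.05 and a smallest adjusted p of 0.0562. Between DWYG-H and DWYG-M no gene passed by edgeR either, with 193 (1.66%) at an unadjusted p under 0.05. The Krt19 value was -1.97 for DWYG-M and -2.35 for DWYG-H, that of Cd24a -1.27 and -1.57, that of Kif20a -1.88 and -1.28, and that of Slco1a1 2.28 and 1.36. For Hsd3b5 the values were 4.50 and 2.65. The 24 genes named by smallest p were picked among those without overlap and with a mean of at least 5 FPKM in a group. Among them, Cyp4a12b had the largest gap, at 1.35 and -0.12 (difference -1.47 ± 0.22, adjusted p = 0.56, edgeR). With 2 libraries a group, a missed threshold does not show that the doses act alike.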

How the data were processed

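RNA of 8 liver samples was extracted with an Ambion kit, and 2 µg of total RNA went into SMART-Seq mRNA LP (Takara) libraries, per the labels' protocols. Per the submitters' processing notes, reads were placed on GRCm39. No source used here gives the aligner, counter, annotation or use of strand. The authors' read counts are taken here for estimated counts, as deposited, since 89.8% to 91.5% of them per library were whole within 0.005. Values in FPKM and TPM are those of the authors, per the file headers. A further set of normalized counts (a signal) was deposited and left untested. Library totals ran from 17345627 to 19191382 counts.

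These estimated counts were rounded to whole numbers, scaled by TMM and tested with edgeR 4.0.16 (R 4.3.3; glmQLFit, glmQLFTest) in 1 model of 4 groups over all 8 libraries, with 4 residual degrees of freedom and a common dispersion of 0.0377. A gene was tested where 2 or more libraries had an FPKM of 1 or more. Benjamini-Hochberg adjustment ran over all 11606, with calls at an adjusted p under 0.05. A standard error is the log2 fold change divided by the root of F, and the 95% intervals use the degrees of freedom of the test. Alternatives used DESeq2 1.42.0, limma 3.58.1 on log2 values, other scalings, filters and sample sets, and a replicate block.

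Named genes were Hsd3b5, Krt19 and Kif20a, the 12 genes of smallest p in each direction among those without overlap and with a mean of at least 5 FPKM in a group, the top 3 by p of every list, and 15 liver and YAP genes. The 12 and 12 were used since fewer than 5 genes passed in each direction. Predicted genes and antigen receptor segments were left out of them. Other list members were named after their values were seen. In all, 41 lists with 1394 entries were written from general knowledge, 1340 entries were in the table, and 40 lists had at least 5 tested members. No mitochondrially encoded gene was found in the table, so that list gave no value. The genes, lists and comparison were chosen with earlier results of these data known. Promoters were matched to 95 of the 137 named genes, and their coordinates are on GRCm38.p6, not on the authors' build. Reads of near-identical copies, overlapping genes and antisense genes cannot be assigned with certainty.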

Additional observations from a re-analysis of the deposited data

How the results depend on the processing

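The count of genes passing (1 higher, 0 lower) was the same with DESeq2 size factors, with totals that leave out Alb and the Mup genes, with no filter and with a filter on the 4 libraries compared. DESeq2 gave 206 (72 higher, 134 lower). With only the 4 libraries in the model, 0 higher and 1 lower gene (Cish) passed. limma gave 2 on log2(FPKM + 1) and 2 on log2(TPM + 1), each with 1 lower gene, and on log2(FPKM + 0.1) it gave 3, of which 2 were higher and 1 lower. Leaving out each library in turn gave 1 to 29 passing genes, 1 to 10 higher and 0 to 27 lower: 23 without model replicate 1 and 29 without model replicate 2. Genes apart by 2-fold were 477, and 442 to 974 without single libraries, 1475 with no filter, 217 by log2(FPKM + 1) and 302 by log2(TPM + 1), where the pseudocount shrinks differences of low genes. TPM moved the median of all genes to -0.13.

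With the replicate number as a block, 0 genes passed (0 higher, 0 lower), 1614 had an unadjusted p under 0.05, and Hsd3b5 had a log2 fold change of 4.49 with an adjusted p of 0.0596. The deviations of same-numbered model and DWYG-M libraries correlated at -0.143, and the other 5 pairs of groups ranged from 0.046 to 0.255. The labels tie no number to a shared mouse, litter or day, so the numbers were not taken to pair the samples. With the pairing crossed, an alternative chosen after seeing the data, 1 gene passed.

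The direction turned for 8 of the 137 named genes. Leaving out single libraries, the lowest and highest log2 fold changes came without model replicates 1 and 2 for Xbp1 (-0.54 and 0.16), Cidec (-2.16 and 0.040), Yap1 (-0.16 and 0.055), Wwtr1 (0.030 and -0.028), Afp (-1.86 and 0.35) and Alb (-0.46 and 0.34). For Ccn2 they came without DWYG-M replicates 1 and 2 (-2.03 and 0.37). Cfd, listed at 0 in model replicate 1, had fitted values of -6.55 to 2.28 that are no measure of a fold. Without DWYG-M replicate 2, Alb was at 0.15 and Wwtr1 at -0.0096. Wwtr1, at 0.00, was also at -0.0065 with only the 4 libraries, -0.054 and -0.059 by log2(FPKM + 1) and log2(FPKM + 0.1), and -0.12 by TPM. Of the comparisons of named genes with their main value, 1812 kept direction and side of the threshold, 88 came to pass, 70 of them by DESeq2, and Hsd3b5 was lost in 2. With 2 libraries a group, the model livers' own difference limits every value.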

Other observations

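Other gene groups had medians from -0.16 to 0.22, beside -0.02 for all genes, and none of their members passed by edgeR. By DESeq2, 3 fatty acid oxidation genes and 3 ER and amino acid stress genes passed, all lower, with Fgf21 on both lists. Of 43 tested interferon response genes, none was apart by 2-fold and the median log2 fold change was -0.16 (-0.26 and 0.028 without model replicates 1 and 2). The GTPase Iigp1 was at 277 and 228 FPKM in model and 164 and 167 in DWYG-M. Cholesterol synthesis genes, 26 tested, had a median of 0.12, which was -0.026 and 0.31 without model replicates 1 and 2. Lipogenic and lipid droplet genes, 35 tested, had a median of 0.12 (0.37 without model replicate 2 and 0.050 without DWYG-M replicate 1), with Scd1, the stearoyl-CoA desaturase, at 467 and 474 in model and 877 and 1311 in DWYG-M. In control Scd1 was at 142 and 100.9. DWYG-H was at 507 and 2781, so its 2 libraries were far apart.

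Among 48 fatty acid oxidation genes the median was 0.22 (0.40 without model replicate 1 and 0.067 without DWYG-M replicate 2). Of these, 4 lay the other way and were apart by 2-fold downward (8.33%, against 3.07% of all genes), and none upward. The acyl-CoA thioesterases Acot2 and Acot3 were among the 4. Acot2 was at 4.73 and 3.22 FPKM in model and 1.23 and 1.63 in DWYG-M, and Acot3 at 4.31 and 2.53 against 0.68 and 1.13. Glycolysis genes, 30 tested, had a median of -0.12 (-0.23 and 0.19 without model replicates 1 and 2), with the pyruvate kinase gene Pkm at 36.3 and 47.6 against 24.6 and 23.7 and hexokinase 1 (Hk1) at 3.13 and 2.82 against 1.89 and 1.68. Both were without overlap. Ribosomal protein genes, 74 tested, had a median of -0.10 and 60 lower values (-0.23 without model replicate 1 and 0.062 without model replicate 2), and none was apart by 2-fold. Clock genes, 21 tested, had a median of 0.12 (0.32 and 0.044 without model replicates 1 and 2, and -0.033 by limma on log2(FPKM + 1)), with the transcription factor Hlf at 5.78 and 4.18 against 6.04 and 9.69. ER and amino acid stress genes, 33 tested, had a median of -0.10 (-0.21 and 0.077 without model replicates 1 and 2, and -0.45 without DWYG-M replicate 1). Of these, 4 were apart by 2-fold downward (12.1%), or 10 without DWYG-M replicate 1. Among the 4 was the stress factor Ddit3, at 58.5 and 27.3 in model and 14.2 and 9.72 in DWYG-M.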
